A study of Mus musculus with 2 samples.

Results

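Marginal zone B cells of the mouse spleen were examined by single-cell RNA sequencing in chronic anaemia. The members were cell barcodes chosen by their counts of unique molecular identifiers (UMIs, each standing for 1 captured RNA molecule). A barcode had at least 1000 UMIs and 300 genes, at most 10% mitochondrial UMIs and under 20% haemoglobin UMIs. It held at least 3 UMIs of Cd79a and Cd79b together, the signalling chains of the B cell receptor, and 0 UMIs of Cd3d, Cd3e and Cd3g, the CD3 chains of T cells. It also held at least 3 UMIs of Fcrl5, Myof and S1pr3 together, at most 1 UMI of Fcer2a (CD23, a follicular B cell marker) and at most 2 UMIs of the activation genes Egr3, Il4i1 and Nfkbid together. These gates found 368 members among 16152 barcodes that passed the first filters on UMIs, genes and mitochondrial share.

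Live spleen cells came from C57BL/6 mice made anaemic over 1 month by 1 of 2 means repeated every 3 days, injection of PHZ (phenylhydrazine, which destroys red blood cells) or bleeding. Each treatment gave 1 library, made with 10x Genomics 3′ v3.1 chemistry, in which 69 members came from the PHZ library and 299 from the bleeding library. The number of mice behind a library is not stated, and untreated mice were not analysed here. With 1 library per treatment there is no replicate check and no test between treatments, so a difference between the libraries describes these 2 libraries. Intervals, given in parentheses, are at 95% and account for counting error alone.

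Marginal zone B cells lie beside the marginal sinus of the spleen, where blood enters the white pulp. Their development depends on Notch2, which is engaged by the ligand Dll1 on stromal cells, and their position depends on sphingosine 1-phosphate receptors and on integrins. They carry high complement receptor 2 (CD21, the product of Cr2), which lets them bind complement-coated antigen from blood and carry it to the follicle, and they are known for rapid IgM responses that need no T cell help. Follicular B cells are the recirculating majority and carry CD23 and high surface IgD. Here they were barcodes that passed the same B cell gates with at least 3 UMIs of Fcer2a and at most 1 UMI of Fcrl5, Myof and S1pr3, which gave 530 PHZ cells and 1271 bleeding cells.

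The PHZ and bleeding libraries held 128130213 and 145260780 UMIs over all barcodes, and 6445 and 9707 barcodes passed the first filters. Members had a median of 10219 UMIs after PHZ, range 4913 to 38716, and of 10534 UMIs after bleeding, range 4049 to 72417. The median was lower over all B barcodes, at 5971 and 5815 UMIs, and over follicular cells, at 5883 and 5638 UMIs. Members were thus deeper barcodes in both libraries, and the cause was not tested. A total of 36 barcode sequences occurred with at least 1000 UMIs in both libraries, and 0 of them were members. Some marker lists of other cell types were near 0: the T cell list had 0 and 8 UMIs over all members and the platelet list 0 and 2. The NK list had 0 and 140 UMIs, with 92 and 43 of the bleeding UMIs in the 2 highest cells. The gates set 3 of the 6 T cell genes, the CD3 chains, to 0, so only the other genes of that list could be counted. The neutrophil list had 63 UMIs in the 69 PHZ members and 4810 in the 299 bleeding members, 4701 of them in 1 cell. The plasma cell list had 10 and 2199 UMIs, with 1379 and 740 of the bleeding UMIs in a pair of cells, and the monocyte list had 11 and 325 UMIs, with 237 in 1 bleeding cell. In all, 0 PHZ members and 11 bleeding members held 10 or more UMIs of another cell type's list.

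The genes that chose the members are given as a description, with their positions on build mm10. Levels are CPM, the summed UMIs of a gene over a group of cells, scaled to a common total of UMIs without haemoglobin genes. Fcrl5 (chr3:87435773-87500678, plus strand), an immunoglobulin-like receptor of marginal zone and B-1 B cells, had 578 CPM in PHZ members and 467 CPM in bleeding members. Myof (chr19:37899036-38043577, minus strand), a ferlin of membrane repair, had 135 CPM in PHZ members and 252 CPM in bleeding members. S1pr3 (chr13:51408639-51422797, plus strand), a sphingosine 1-phosphate receptor, had 66.9 CPM in PHZ members and 104 CPM in bleeding members. At least 1 Fcrl5 UMI was present in 64 of 69 and 280 of 299 members, a Myof UMI in 38 and 226, and an S1pr3 UMI in 29 and 167. Fcrl5 was thus the gene most members shared, and Myof and S1pr3 were at lower levels in the PHZ library.

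Cr2, which the gates did not use, checks the label and the edges of the gates. Members with exactly 3 gate UMIs, 15 from PHZ and 43 from bleeding, had 1473 and 1100 CPM of Cr2. The 26 and 47 barcodes just outside, with 2 gate UMIs, had 630 and 787 CPM, and the 23 and 115 members with 10 or more gate UMIs had 1772 and 2161 CPM. Members with 4 to 5 gate UMIs had 1194 and 1099 CPM, and those with 6 to 9 had 954 and 2053 CPM. Within the members of the PHZ library Cr2 thus did not rise step by step with gate UMIs. The 13 and 37 barcodes that only the activation genes kept out had 667 and 1026 CPM of Cr2, and the 17 and 64 that 3 or more Fcer2a UMIs kept out had 1298 and 1199 CPM. Cr2 was therefore high on both sides of the Fcer2a gate and lower outside the gate on Fcrl5, Myof and S1pr3.

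The promoters of Cr2 and Cd9 are shown because these 2 genes, described next, mark the members and each promoter holds a match to the core motif of RBPJ, the DNA-binding partner of Notch. The motif searched was TGGGAA on both strands, with no other motif searched, in RefSeq promoters that span 250 bases before to 50 bases after the start of each gene. The sequences are from build GRCm38.p6, at chr1:195176670-195176969 for Cr2 and chr6:125494711-125495010 for Cd9, both on the minus strand, written 5′ to 3′ with the match in capitals.
Cr2: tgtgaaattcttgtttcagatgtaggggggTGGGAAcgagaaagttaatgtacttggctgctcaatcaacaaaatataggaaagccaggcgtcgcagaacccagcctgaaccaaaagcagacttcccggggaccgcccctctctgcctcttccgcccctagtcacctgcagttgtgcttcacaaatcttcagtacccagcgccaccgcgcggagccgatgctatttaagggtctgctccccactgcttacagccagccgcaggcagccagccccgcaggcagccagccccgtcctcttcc
Cd9: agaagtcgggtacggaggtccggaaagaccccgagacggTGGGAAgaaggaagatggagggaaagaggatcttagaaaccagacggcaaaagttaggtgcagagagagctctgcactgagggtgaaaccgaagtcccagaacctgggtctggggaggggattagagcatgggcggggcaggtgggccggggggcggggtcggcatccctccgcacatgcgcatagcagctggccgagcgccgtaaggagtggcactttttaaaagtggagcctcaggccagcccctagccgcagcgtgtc
The same letters occur in 8397 of 32851 mouse promoters of this length, 25.6%. They occur in 4 of the 12 marginal zone identity genes with a promoter in the table, Cr2, Cd9, Cd36 and Cd38, in 1 of 9 matched genes of those named as higher than in follicular cells, and in 2 of 8 of those named as lower. A match describes the letters in this window and not a bound site.

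The members carried the RNA profile of the marginal zone in both libraries when set against follicular B cells. Cr2 had 1385 CPM in marginal zone cells and 513 CPM in follicular cells of the PHZ library, a ratio of 2.70 (2.50 to 2.91). In the bleeding library it had 1776 CPM in marginal zone cells and 554 CPM in follicular cells, a ratio of 3.21 (3.08 to 3.33). Cd9, a tetraspanin of the marginal zone B cell surface, stood further apart: 89.3 CPM in marginal zone and 6.59 CPM in follicular cells of the PHZ library, and 102 CPM and 4.50 CPM in those of the bleeding library. Dtx1, encoding Deltex 1 and a target of Notch2 in these cells, had 264 CPM in marginal zone and 43.4 CPM in follicular cells of the PHZ library, a ratio of 6.07 (4.88 to 7.57), and a ratio of 6.39 (5.69 to 7.18) in the bleeding library. Cd1d1, the CD1d chain that presents lipids to NKT cells, was 3.31 times higher in marginal zone than in follicular cells of the PHZ library and 5.98 times higher in the bleeding library.

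Genes count as apart here when their CPM differed by at least 2-fold in the same direction in both libraries, among genes with a mean of at least 20 CPM. Of the marginal zone identity list, 14 of 17 genes had such a mean, and 11 were higher in marginal zone cells and 0 lower, against 1.88% higher and 1.68% lower among all 6122 genes compared. The list's median log2 ratio was 1.67 for PHZ and 2.09 for bleeding, beside −0.08 and −0.09 over all genes. The other higher genes of the list were Tm6sf1, Mzb1 (a chaperone of IgM assembly), Cd36 (a scavenger receptor), Marcks (an actin-linked kinase substrate), Pdia4 (an endoplasmic reticulum disulphide isomerase), Dusp16 (a MAP kinase phosphatase) and Plac8. Plac8 had 1191 CPM in marginal zone and 283 CPM in follicular cells of the PHZ library, and 1448 and 296 CPM in those of the bleeding library. The 3 measured genes of the list that stayed under 2-fold in a library were Notch2 itself, at 0.67 and 0.81 times the follicular level, S1pr1 at 1.54 and 2.06 times, and Cd38 at 1.56 and 1.64 times. The receptor Notch2 was thus not higher in the members while its targets Dtx1 and Hes1 were.

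**Figure D1:**
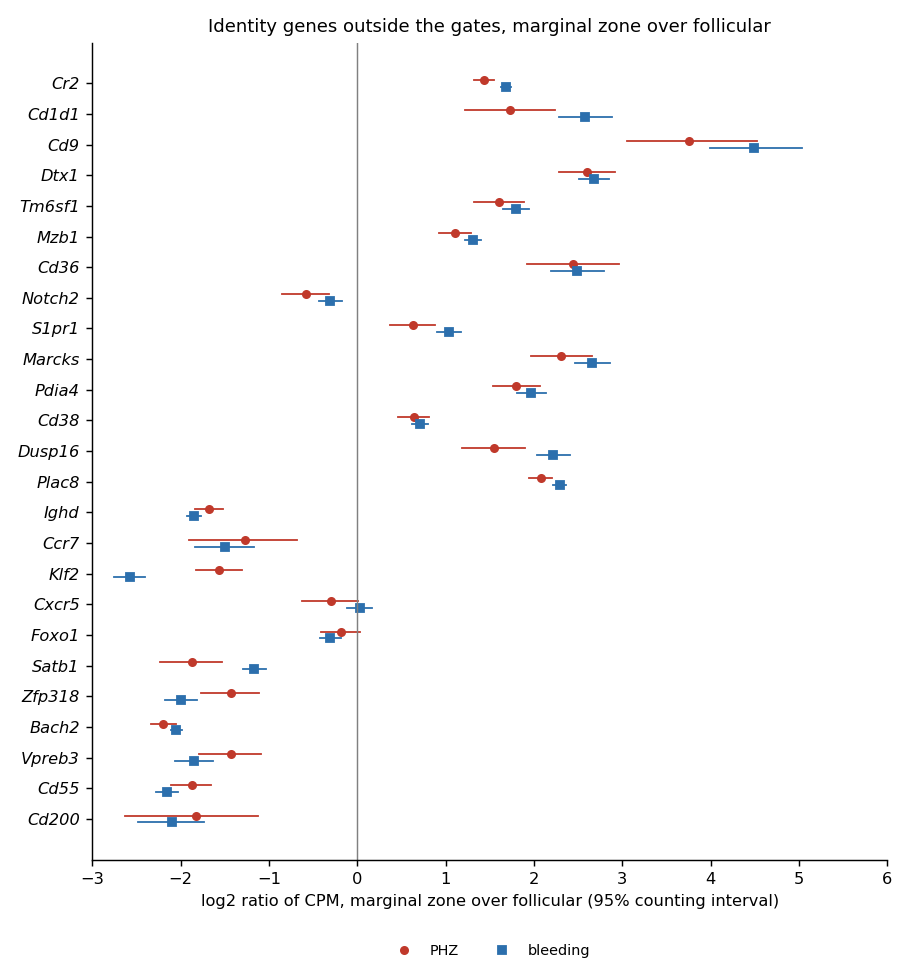
Log2 ratio of summed CPM, marginal zone over follicular B cells (horizontal axis), for 14 marginal zone and 11 follicular identity genes that the gates did not use. Points are the PHZ library (red circles) and the bleeding library (blue squares), lines are 95% counting intervals, and genes right of 0 are higher in marginal zone cells. Cd9 lies furthest right, and 9 of the 11 follicular genes lie left of a 2-fold difference in both libraries.

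Genes of follicular identity were lower in the members. Of 12 listed genes, 10 were lower by 2-fold or more in both libraries and 0 were higher, with median log2 ratios of −1.62 and −1.91. Among all genes compared, 1.68% were lower and 1.88% higher. Ighd, the IgD heavy chain, had 466 CPM in marginal zone and 1492 CPM in follicular cells of the PHZ library, and 420 and 1512 CPM in those of the bleeding library, in both below the follicular level by more than 3-fold. Bach2, a repressor of plasma cell fate, had 568 CPM in marginal zone and 2608 CPM in follicular cells of the PHZ library, with 606 and 2507 CPM in those of the bleeding library. Klf2, a factor for lymphocyte recirculation, had 173 CPM in marginal zone and 513 CPM in follicular cells of the PHZ library, against 85.4 and 509.6 CPM in those of the bleeding library. Its gap was narrower in the PHZ library, with a ratio of 0.338 (0.281 to 0.403) there and 0.168 (0.148 to 0.189) in the bleeding library. Ccr7, Cd55, Cd200, Satb1, Vpreb3 and Zfp318 were among the other lower genes, while the follicle-homing receptor Cxcr5 was at 0.812 and 1.02 times the follicular level and Foxo1 at 0.881 and 0.809 times.

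Among Notch pathway genes, 22 were measured, and 2 were higher (Dtx1 and Hes1) and 1 lower (Maml3, a coactivator of the family) by 2-fold in both libraries. The shares among all genes compared were 1.88% higher and 1.68% lower. Hes1, a repressor that Notch switches on, had 59.1 CPM in marginal zone and 24.3 CPM in follicular cells of the PHZ library, and 55.7 and 23.2 CPM in those of the bleeding library. Hes5 and Asb2, also linked to Notch, lay under the 20 CPM mean: Hes5 was 3.59 times higher in marginal zone cells of the PHZ library (1.31 to 9.52) and 5.33 times higher in the bleeding library (3.12 to 9.39), and Asb2, encoding a ubiquitin ligase subunit, 12.6 and 24.8 times higher. The list's median was −0.12 and −0.06, close to that of all genes, so a few genes moved apart and most did not.

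For the genes of shuttling and retention, 28 were measured, with 2 higher and 6 lower, against 1.88% higher and 1.68% lower among all genes compared. Rgs10, a regulator of G protein signalling, had 77.4 CPM in marginal zone and 4.19 CPM in follicular cells of the PHZ library, and 107 and 9.62 CPM in those of the bleeding library. Itgb1, the β1 integrin chain, was 2.98 and 2.36 times higher in marginal zone cells. The lower genes included Ccr7, Klf2, the sphingosine 1-phosphate receptor S1pr4 (0.371 and 0.319 times), the β7 integrin chain Itgb7 (0.339 and 0.313 times) and Icam2. The chemokine receptor Cxcr4, under the 20 CPM mean, was at 0.295 and 0.247 times the follicular level.

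Innate and antigen-handling genes gave a mixed pattern. Of all 6122 genes compared, 1.88% were higher and 1.68% lower by 2-fold in both libraries. Counts of 1 or 2 genes therefore say little about a list as a whole. In the Toll-like receptor list, 1 of 15 measured genes, the RNA sensor Tlr7, was higher by 2-fold in both libraries (2.14 and 2.39 times) and 0 were lower. Cd180, a Toll-like receptor homologue of B cells, was 1.71 and 1.67 times higher, and Ly96, the MD-2 partner of Toll-like receptor 4, 2.88 and 3.55 times higher at a low level. In the antigen presentation list of 24 measured genes, the costimulatory ligand Cd86 was higher (2.51 and 2.33 times) together with Cd1d1, and H2-Ob and Cd83 were lower. The MHC class II chain H2-Aa was at 0.615 and 0.641 times and the invariant chain Cd74 at 0.684 and 0.694 times the follicular level, short of 2-fold. In B cell receptor signalling, 1 of 41 measured genes, the phosphatase Ptpn22, was higher (3.10 and 4.83 times) and 2, the proton channel Hvcn1 (0.291 and 0.253 times) and the Ras exchange factor Rasgrp3 (0.403 and 0.412 times), were lower. Among 34 measured B cell transcription factors, 0 were higher and 4, Bach2, Klf2, Bcl6 and Fli1, were lower. The list of BAFF, CD40 and NF-kB genes had 0 of 22 past 2-fold in either direction, with medians of −0.39 and −0.38.

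Ranked over all genes by the counting bound nearest 1, the genes furthest above the follicular level included several at or near 0 in follicular cells. Ube2e2, a ubiquitin-conjugating enzyme, had 52.5 CPM in marginal zone and 0.599 CPM in follicular cells of the PHZ library, and 112 and 0.750 CPM in those of the bleeding library. Nebl, an actin-binding protein of the nebulin family, had 76.1 CPM in marginal zone and 3.30 CPM in follicular cells of the PHZ library, and 88.1 and 2.87 CPM in those of the bleeding library. Ackr3, an atypical receptor for CXCL12, had 40.7 CPM in marginal zone and 0.599 CPM in follicular cells of the PHZ library, and 34.8 and 0.750 CPM in those of the bleeding library. These 3 genes were many times higher in marginal zone cells of both libraries, but Ackr3 and Ube2e2 were uneven in the PHZ library. The highest PHZ member held 45.2% of the Ackr3 UMIs and the highest for Ube2e2 held 35.0%. The 3 highest PHZ members held 64.5% and 67.5%. Slit3, a guidance ligand, came first with 48.6 CPM in PHZ members and 44.7 CPM in bleeding members, yet only 4 and 15 members had a UMI of it and 1 PHZ member held 48.6% of the UMIs. The other genes named by this ranking included Tsga13, Adam28 (a cell-surface metalloprotease), I830077J02Rik, Pla2g7 (which degrades platelet-activating factor), Pstpip2 (a membrane-cytoskeleton adaptor), Gm35419 and Serpine2 (a protease inhibitor). Of these, Pstpip2 had 76.1% of its PHZ and 62.3% of its bleeding UMIs in the 3 highest members. The genes ranked furthest below included Gm47782, Pde2a (a cyclic nucleotide phosphodiesterase), Gm39383, Bach2, Rflnb, Cd55, Rbpms, Bbs9, Gm11342, Gm15675 and Mapk11 (the β isoform of p38). Pde2a had 2.62 CPM in marginal zone and 42.5 CPM in follicular cells of the PHZ library, and 3.27 and 31.1 CPM in those of the bleeding library. Strand and intronic read handling are not given in the sources used here, so reads of genes that overlap others cannot be told apart.

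Marginal zone B cells made up a smaller part of the B cells in the PHZ library. They were 69 of 1560 B barcodes there, 4.42% (3.46 to 5.56), and 299 of 3449 in the bleeding library, 8.67% (7.75 to 9.66), a ratio of 0.510 (0.387 to 0.665). Follicular B cells were 34.0% of PHZ and 36.9% of bleeding B barcodes, a ratio of 0.922 (0.832 to 1.02). Over all filtered barcodes the marginal zone share was 1.07% for PHZ and 3.08% for bleeding, a ratio of 0.348 (0.264 to 0.453), and B barcodes as a whole were 24.2% and 35.5%. When every barcode was thinned to 2000 UMIs before the gates, 20 of 1440 PHZ and 70 of 3263 bleeding B barcodes were members, a ratio of 0.647 with an interval (0.373 to 1.08) that spans 1. Thinning only chose the cells in this alternative. Gene and list values given for it use the full counts of the cells so chosen. These are shares of captured barcodes, so losses during isolation and a smaller population in the spleen cannot be told apart.

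The members were split into 2 kinds by Myof and S1pr3, a split made after the values were seen and not planned. Of the 368 members, 296 held at least 1 UMI of Myof or S1pr3, and 72 passed through Fcrl5 alone. The Fcrl5-only cells were 24 of the 69 PHZ members, 34.8% (23.7 to 47.2), and 48 of the 299 bleeding members, 16.1% (12.1 to 20.7), a ratio of 2.17 (1.27 to 3.61). As a share of B barcodes they were 1.54% (0.988 to 2.28) for PHZ and 1.39% (1.03 to 1.84) for bleeding, a ratio of 1.11 (0.648 to 1.84). Members with Myof or S1pr3 were 45 PHZ cells, 2.88% of B barcodes (2.11 to 3.84), and 251 bleeding cells, 7.28% (6.43 to 8.20), a ratio of 0.396 (0.282 to 0.546). The split uses genes of the gate, and the difference between these 2 ratios was not tested. Members had a median of 1 and 2 Myof UMIs and of 0 and 1 S1pr3 UMIs (PHZ and bleeding). A cell that carries these RNAs can therefore lack a UMI of both.

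**Figure D2:**
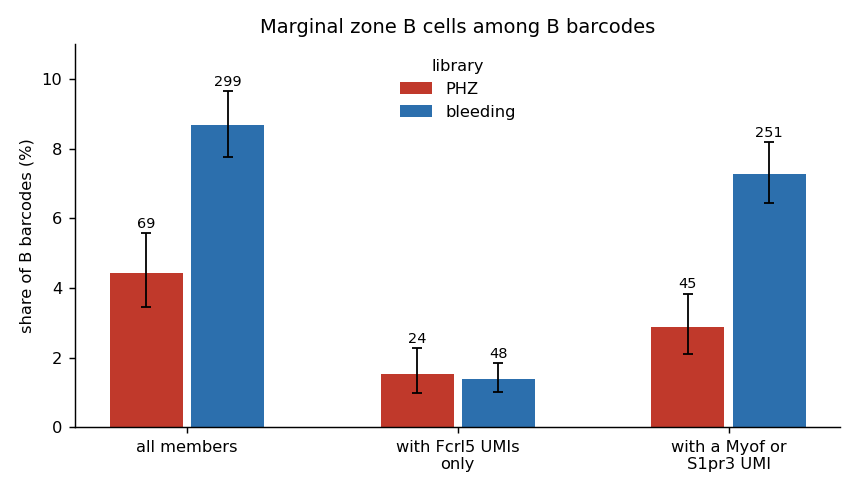
Share of B barcodes in percent (vertical axis) that were marginal zone members, all together, with Fcrl5 UMIs only, or with a Myof or S1pr3 UMI, in the PHZ library (red) and the bleeding library (blue). Bars are the shares, lines are exact 95% binomial intervals and the number over each bar counts its cells. For all members the bars stand at 4.42% and 8.67%, and for Fcrl5-only members at 1.54% and 1.39%.

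Cr2 was far above the follicular level in members with Myof or S1pr3, while its summed level and median in Fcrl5-only members were close to it. Fcrl5-only members were mixed: the lower and upper quartiles of Cr2 per cell were 0 and 1491 CPM for PHZ and 0 and 1109 CPM for bleeding. In follicular cells these quartiles were 0 and 749 CPM for PHZ and 76.6 and 733 CPM for bleeding. In the PHZ library Cr2 had 595 CPM in Fcrl5-only members and 1892 CPM in members with Myof or S1pr3, a ratio of 0.314 (0.266 to 0.370), beside 513 CPM in follicular cells. In the bleeding library it had 561 CPM in Fcrl5-only members and 2035 CPM in members with Myof or S1pr3, a ratio of 0.276 (0.246 to 0.308), beside 554 CPM in follicular cells. A Cr2 UMI was present in 15 of 24 and 32 of 48 Fcrl5-only members and in 44 of 45 and 242 of 251 members with Myof or S1pr3. Depth did not differ much between the kinds, with median UMIs without haemoglobin of 10396.5 and 10490.5 in Fcrl5-only members and 10151 and 10478 in members with Myof or S1pr3. With each cell thinned to 2000 UMIs, 41.7% of PHZ and 52.1% of bleeding Fcrl5-only members had a Cr2 UMI, against 86.7% and 91.2% of members with Myof or S1pr3, 47.7% and 51.5% of follicular cells, and 0.644% and 0.508% of T cells, whose median depths were 8495 and 7784 UMIs. By Cr2, the name marginal zone therefore fits the members with Myof or S1pr3, and the Fcrl5-only members are called by their gate.

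**Figure D3:**
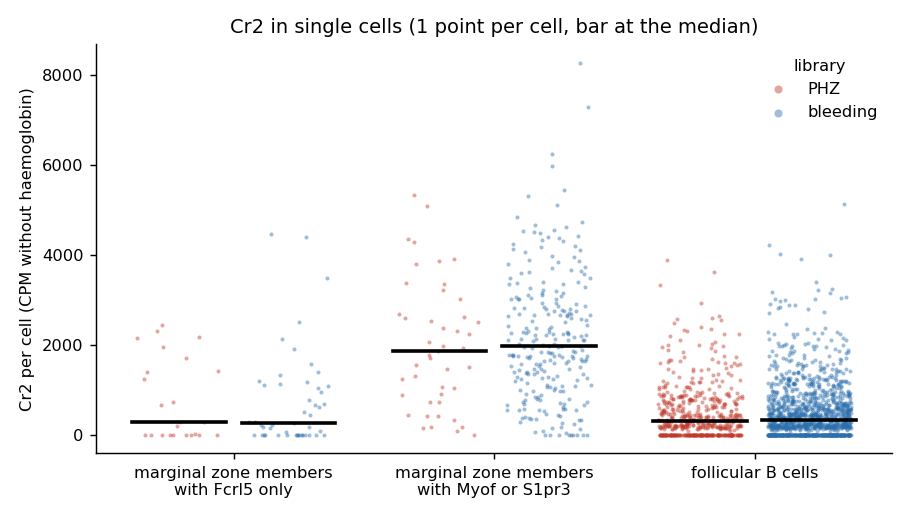
Cr2 in single cells as CPM without haemoglobin (vertical axis), for Fcrl5-only members, members with Myof or S1pr3 and follicular B cells, PHZ library in red and bleeding library in blue. Each point is 1 cell and each bar a median. The medians are 286 and 272 CPM in Fcrl5-only members, 1854 and 1967 CPM in members with Myof or S1pr3, and 299 and 339 CPM in follicular cells.

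Over all genes, 1.35% of 5843 were higher and 1.76% lower by at least 2-fold in Fcrl5-only members than in members with Myof or S1pr3 in both libraries. Of 15 measured marginal zone identity genes, 0 were higher and 6 lower (Cr2, Cd1d1, Dtx1, Tm6sf1, Asb2 and Dusp16), with median log2 ratios of −0.62 and −1.14 beside 0.01 and −0.06 over all genes. Dtx1 had 138 CPM in Fcrl5-only members and 345 CPM in members with Myof or S1pr3 of the PHZ library, and 148 and 357 CPM in those of the bleeding library. Both values lie between those of follicular cells and of members with Myof or S1pr3. Some marginal zone genes did not separate the kinds: Mzb1 had 524 CPM in Fcrl5-only members and 485 CPM in members with Myof or S1pr3 of the PHZ library, and Plac8 had 1314 and 1112 CPM. Cd9 had 67.2 CPM in Fcrl5-only members and 103 CPM in the others of the PHZ library, and 66.1 and 109 CPM in those of the bleeding library, in both kinds many times its follicular level. Other genes ranked as lower in Fcrl5-only members were Adam28, Camkmt (a calmodulin methyltransferase), Il9r (the interleukin 9 receptor), Rundc3b, Sorbs2, Trps1 (a GATA-type zinc finger factor), Ldlrad3, I830077J02Rik and Ptpn14 (a tyrosine phosphatase).

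**Figure D4:**
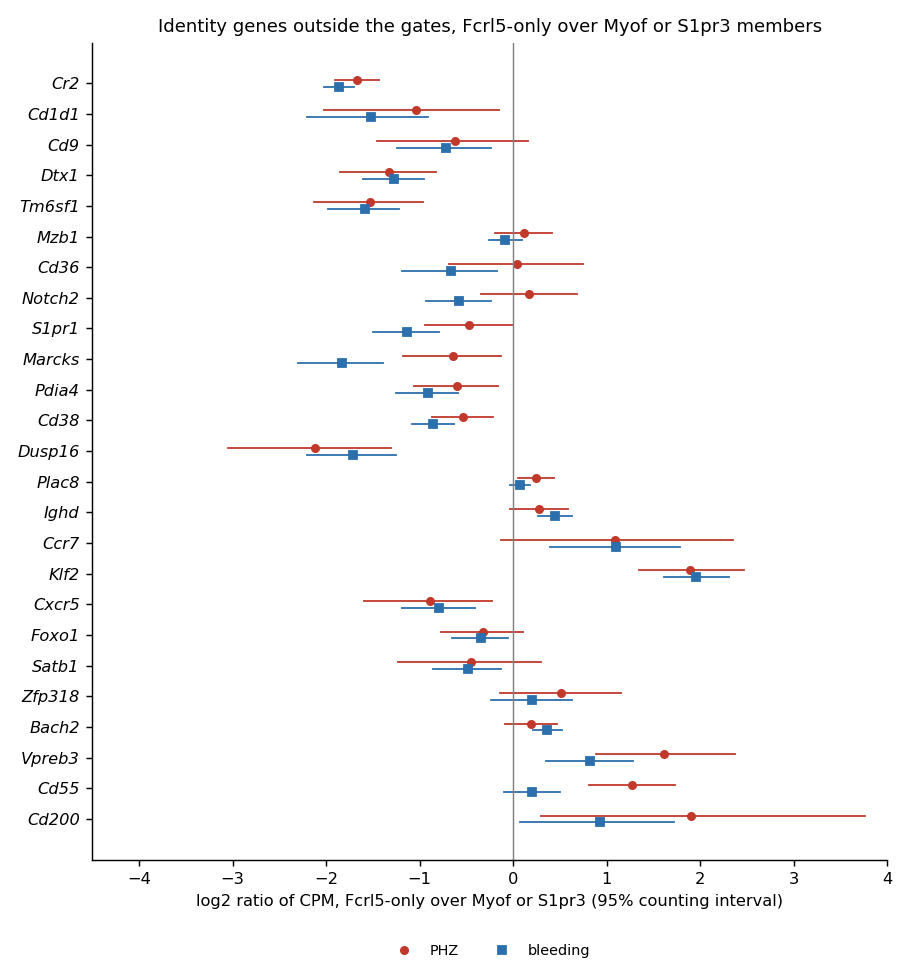
Log2 ratio of summed CPM, Fcrl5-only members over members with Myof or S1pr3 (horizontal axis), for the same identity genes, with the PHZ library as red circles and the bleeding library as blue squares. Lines are 95% counting intervals. Cr2, Dtx1, Tm6sf1 and Dusp16 lie left of a 2-fold difference in both libraries, Klf2 and Ccr7 right of one, and Mzb1 and Plac8 near 0.

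The genes ranked as higher in Fcrl5-only members were led by cytoskeletal and calcium-binding genes. Vim, an intermediate filament protein, had 366 CPM in Fcrl5-only members and 34.5 CPM in members with Myof or S1pr3 of the PHZ library, and 309 and 19.9 CPM in those of the bleeding library. Without the highest Fcrl5-only cell of each library, Vim had 154 CPM in the PHZ and 228 CPM in the bleeding library, still above the other members. S100a10, a partner of annexin A2, had 406 CPM in Fcrl5-only members and 92.6 CPM in members with Myof or S1pr3 of the PHZ library, and 266 and 77.3 CPM in those of the bleeding library. Without the highest Fcrl5-only cell it had 251 CPM in the PHZ library. Ahnak, a large scaffold protein, had 138 CPM in Fcrl5-only members and 23.7 CPM in the others of the PHZ library, and 127 and 6.86 CPM in those of the bleeding library. Klf2 had 312 CPM in Fcrl5-only members and 84.0 CPM in members with Myof or S1pr3 of the PHZ library, and 220.4 and 56.7 CPM in those of the bleeding library, so it lay between the members with Myof or S1pr3 and follicular cells. S100a6, a calcium-binding protein, rested on few cells, since 89.1% of its UMIs in bleeding Fcrl5-only members came from 1 cell, and its 449 CPM became 51.0 CPM without it. Tagln2 (an actin-binding protein), Lgals1 (galectin 1), Cep55 (a cytokinesis protein), Ckap4 and Hcrtr2 (an orexin receptor) completed the ranking together with Agbl1 and Sox5. Cep55 had only 11 UMIs in 2 of 24 PHZ and 8 UMIs in 3 of 48 bleeding Fcrl5-only members, with 9 and 6 of these UMIs in 1 cell.

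Sox5, a SOX-family transcription factor, had 679 CPM in Fcrl5-only members and 194 CPM in members with Myof or S1pr3 of the PHZ library, and 444 and 108 CPM in those of the bleeding library. A Sox5 UMI was present in 12 of 24 and 23 of 48 Fcrl5-only members, against 13 of 45 and 59 of 251 members with Myof or S1pr3. Agbl1, a carboxypeptidase, had 685 CPM in Fcrl5-only members and 58.2 CPM in members with Myof or S1pr3 of the PHZ library, but the PHZ UMIs came from 7 of 24 cells and 52.9% from 1 of them. Sox5 was thus spread over more cells than Agbl1.

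Markers of other B cell types were compared between the kinds, and their part in the results was not tested. The 5 genes of the B-1 list summed to 124 CPM in Fcrl5-only members and 25.9 CPM in members with Myof or S1pr3 of the PHZ library, and to 132 and 22.4 CPM in those of the bleeding library, beside 22.8 and 16.5 CPM in follicular cells. A UMI of the list was present in 13 of 24 and 23 of 48 Fcrl5-only members, against 7 of 45 and 39 of 251 members with Myof or S1pr3. Bhlhe41, a transcription factor needed by mouse B-1a cells, gave much of this, with 77.3 CPM in Fcrl5-only members and 17.2 CPM in members with Myof or S1pr3 of the PHZ library, and 66.1 and 7.58 CPM in those of the bleeding library. Cd5, the surface marker of B-1a cells, had 3.36 and 10.2 CPM in Fcrl5-only members and 2.15 and 2.53 CPM in members with Myof or S1pr3, near 0 in both. The transitional list summed to 726 CPM in Fcrl5-only members and 224 CPM in members with Myof or S1pr3 of the PHZ library and to 358 and 232 CPM in those of the bleeding library. Follicular cells had 473 and 376 CPM (PHZ and bleeding), and 1 bleeding Fcrl5-only cell held 72 of the 211 UMIs of its group. The age-associated list summed to 13.4 and 6.46 CPM in the PHZ library, from only 4 and 3 UMIs, and to 25.4 and 21.3 CPM in the bleeding library. Proliferation lists had median log2 ratios, Fcrl5-only over members with Myof or S1pr3, of 1.10 (PHZ) and 0.50 (bleeding) for G2 and M phase genes and 0.52 and 1.14 for S phase genes. These rested on few cells: 1 cell held 70.6% of the G2 and M phase UMIs of PHZ Fcrl5-only members and 1 cell 60.7% of those of bleeding ones, and the highest cell held 39.8% and 50.1% of the S phase UMIs. The median cell had 10.5 and 7.5 G2 and M phase UMIs among Fcrl5-only members (PHZ and bleeding), beside 8 and 8 among members with Myof or S1pr3.

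Between treatments, members of the PHZ library differed from those of the bleeding library in few genes by a wide margin. Among 6357 genes with a mean of at least 20 CPM, 308 were higher by at least 1.5-fold in PHZ members (4.85%) and 320 lower (5.03%), 9.88% in all, with a median log2 ratio of 0.02 over all genes. In follicular cells, whose summed UMIs were larger, 18 genes were higher (0.284%) and 15 lower (0.237%) of 6341, 0.52% in all. Within members that held Myof or S1pr3, 368 were higher (5.86%) and 377 lower (6.01%) of 6275, 11.9% in all. Summed UMIs without haemoglobin were 761835 in PHZ and 3359192 in bleeding members, and 3338270 and 8001771 in follicular cells, so counting error was larger in members. Under the naming rule, genes whose whole interval lay beyond 1.5-fold numbered 8 in the higher and 20 in the lower direction.

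The marginal zone identity list was slightly lower in PHZ members, and less so within members that held Myof or S1pr3. Cr2 had 1385 CPM in PHZ and 1776 CPM in bleeding members, a ratio of 0.780 (0.730 to 0.832), and within members with Myof or S1pr3 the ratio was 0.929 (0.865 to 0.998), close to the 0.927 of follicular cells. Tm6sf1 was at 0.814 (0.689 to 0.957) over all members and 0.965 within members with Myof or S1pr3, and Dusp16 at 0.716 (0.580 to 0.878) and 0.900. Plac8 had the same direction in both, at 0.822 (0.765 to 0.883) and 0.775. Of 16 measured genes of the list, 0 were past 1.5-fold upward and 1, Asb2, downward, with a median of −0.19 log2 in all members, −0.11 in members with Myof or S1pr3 and 0.04 in follicular cells. Of 12 follicular identity genes, 2 (Klf2 and Vpreb3) were past 1.5-fold upward and 1 (Satb1, a chromatin organiser) downward. Of all genes, 4.85% were past it upward and 5.03% downward. Satb1 had 94.5 CPM in PHZ and 169 CPM in bleeding members, a ratio of 0.559 (0.431 to 0.715), with 0.593 within members that held Myof or S1pr3 and 0.912 in follicular cells. Notch pathway genes had a median of 0.00 over 22 genes, with 1, Maml3, past 1.5-fold upward, and Notch2 itself was at 0.934 (0.770 to 1.13).

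Of the 8 genes with intervals above 1.5-fold in PHZ members, 6 were also among the 12 first ranked as higher in Fcrl5-only members. These were Agbl1, Sox5, Vim, Ahnak, Klf2 and S100a10, and 26 genes in all passed the bound of that ranking. Both rankings draw on the same PHZ cells, so the overlap is partly built in, and its cause was not tested. Sox5 had 383 CPM in PHZ and 167 CPM in bleeding members, a ratio of 2.30 (1.99 to 2.65). It was also above 1 within members with Myof or S1pr3, at 1.80 (1.40 to 2.28), and in follicular cells, at 2.02, where it had 51.5 CPM after PHZ and 25.5 CPM after bleeding. Klf2 had a ratio of 2.03 (1.64 to 2.50) over all members, 1.48 (1.02 to 2.12) within members with Myof or S1pr3 and 1.01 in follicular cells. S100a10 had a ratio of 1.95 (1.61 to 2.35) over all members and 1.20 (0.843 to 1.67) within members with Myof or S1pr3. Emp3, a small membrane protein, was at 2.22 (1.67 to 2.94) and 1.88 (1.19 to 2.88), and H2afv, a histone H2A variant, at 1.89 (1.51 to 2.36) and 1.58 (1.16 to 2.11). Ahnak was at 2.44 (1.70 to 3.46) over all members and 3.45 (1.49 to 7.64) within members with Myof or S1pr3. Agbl1 was at 2.88 (2.43 to 3.41) over all members but 1.08 (0.690 to 1.64) within members with Myof or S1pr3, and 46.8% of its PHZ UMIs came from 1 cell. Vim was at 2.33 (1.86 to 2.90) and 1.74 (0.928 to 3.07), with 55.2% of its PHZ UMIs in 1 cell. Its log2 ratio was −2.16 in the full counts of the 20 PHZ and 70 bleeding members chosen after thinning to 2000 UMIs.

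**Figure D5:**
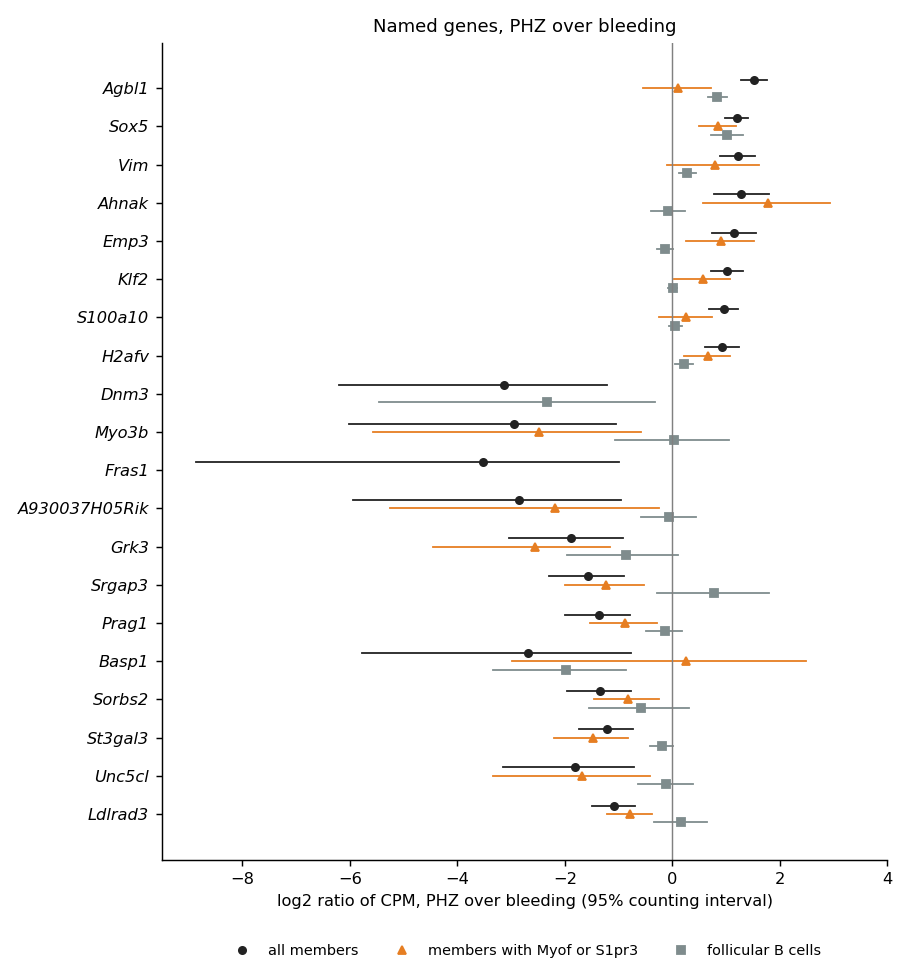
Log2 ratio of CPM, PHZ over bleeding (horizontal axis), for the 20 genes named among all members, shown for all members (black circles), members with Myof or S1pr3 (orange triangles) and follicular B cells (grey squares), with 95% counting intervals. No point is drawn for Dnm3 and Fras1 in members with Myof or S1pr3 or for Fras1 in follicular cells, where the PHZ library had 0 UMIs. For Sox5 all 3 points lie right of 0, while for Agbl1 the triangle lies near 0.

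Of the 20 genes with intervals below 1.5-fold, the 12 ranked first are described. Ldlrad3, a receptor of the low-density lipoprotein receptor class, had 80.1 CPM in PHZ and 169 CPM in bleeding members, a ratio of 0.473 (0.357 to 0.616), and 0.581 (0.430 to 0.772) within members with Myof or S1pr3. St3gal3, a sialyltransferase, had 49.9 CPM in PHZ and 116 CPM in bleeding members, a ratio of 0.432 (0.301 to 0.603), and 0.361 (0.217 to 0.566) within members with Myof or S1pr3. Srgap3 had 26.2 CPM in PHZ and 77.4 CPM in bleeding members, with 4.49 and 2.62 CPM in follicular cells. Its ratio was 0.339 (0.204 to 0.535) over all members and 0.428 (0.249 to 0.690) within members with Myof or S1pr3. Grk3, a kinase that desensitises G protein-coupled receptors, had 11.8 CPM in PHZ and 43.5 CPM in bleeding members, a ratio of 0.272 (0.122 to 0.530). These 4 genes were lower in the PHZ library in all members and within members with Myof or S1pr3. Prag1 (0.389), Sorbs2 (0.394), Unc5cl (0.286), Myo3b (0.130) and A930037H05Rik (0.138) had the same direction in both sets. Fras1 and Basp1 rested largely on 1 cell of the bleeding library, which held 68.6% and 70.2% of their UMIs. Dnm3 had UMIs in 9 of 299 bleeding members, with 33.8% of them in the highest cell and 72.7% in the 3 highest.

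Within members that held Myof or S1pr3, ranked by themselves, 1 gene had an interval above 1.5-fold and 8 below. Apoe, a lipid transport protein, had 403 CPM in PHZ and 198 CPM in bleeding members of this kind, a ratio of 2.04 (1.72 to 2.41), with a UMI in 27 of 45 and 95 of 251 cells. Fcrl5-only members went the other way, with 346 CPM in the PHZ and 666 CPM in the bleeding library, and follicular cells were at 1.20. Of the lower genes, Gbe1 (glycogen branching enzyme) had 6.46 CPM in PHZ and 35.7 CPM in bleeding members of this kind, Commd10 12.9 and 52.0 CPM, and Imp4 (a ribosome biogenesis factor) 6.46 and 34.7 CPM. Ltv1, also of ribosome biogenesis, Pms1 (a mismatch repair protein), Nox1 (an NADPH oxidase), Grk3 and St3gal3 were the others, with Nox1 at 0 UMIs in the PHZ and 21.7 CPM in the bleeding library. In Fcrl5-only members Nox1 had 50.4 CPM after PHZ and 22.0 CPM after bleeding, Gbe1 47.0 and 47.5 CPM, Imp4 43.7 and 35.6 CPM, and Ltv1 33.6 and 22.0 CPM. Over all members Nox1 had 19.7 CPM in PHZ and 21.7 CPM in bleeding cells.

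Survival genes differed in both directions, and some transcription factor genes were higher in PHZ members. Among all genes, 4.85% were past 1.5-fold upward and 5.03% downward in all members. Within members with Myof or S1pr3 these shares were 5.86% and 6.01%. Bcl2, which blocks apoptosis, had 549 CPM in PHZ and 416 CPM in bleeding members, a ratio of 1.32 (1.18 to 1.47), and 1.18 in follicular cells. Mcl1, of the same family, was at 1.48 (1.30 to 1.69) over all members, 1.11 within members with Myof or S1pr3 and 1.20 in follicular cells. Over the 8 measured Bcl2 family genes, 0 were past 1.5-fold upward and 4 (Bcl2a1d, Bak1, Bcl2l11 and Bid) downward, with a median of −0.33 in all members and 0.15 in members with Myof or S1pr3. The sign of the median depended on the processing. It was 0.33 for the members chosen after thinning to 2000 UMIs and, over all members, 0.38 for genes with a mean of 50 CPM. Of 36 measured B cell transcription factors, 6 were past 1.5-fold upward (Spib, Klf2, Bhlhe41, Arid3a, Myc and Jund) and 0 downward, whereas within members with Myof or S1pr3 0 of 34 were past it in either direction. Spib, an Ets-family factor of B cells, was at 1.55 (1.28 to 1.87) over all members, 1.36 within members with Myof or S1pr3 and 1.37 in follicular cells.

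Higher values of proliferation genes in PHZ members rested on few cells. The shares of all genes past 1.5-fold were 4.85% upward and 5.03% downward. Of 20 measured G2 and M phase genes, 11 were past 1.5-fold upward in PHZ members and 1 downward, with a median of 0.84 log2, and the list summed to 1615 UMIs in the 69 PHZ members. A single PHZ cell held 51.6% of these, and 3 PHZ and 3 bleeding members held 50 or more UMIs of the list. Mki67, a marker of cycling cells, had 95.8 CPM in PHZ and 22.3 CPM in bleeding members, a ratio of 4.29 (3.07 to 6.00), and 1.11 within members with Myof or S1pr3. S phase genes had 7 of 21 past 1.5-fold upward and a median of 0.35, with Pola1 (a DNA polymerase α subunit) at 2.27 (1.69 to 3.03) over all members and 2.72 within members with Myof or S1pr3. The median of both lists was 0.20 in members with Myof or S1pr3 and −0.03 for G2 and M phase and −0.17 for S phase genes in follicular cells. Without the members that held 50 or more UMIs of the G2 and M phase list, the medians over the others were 0.23 for G2 and M phase and −0.01 for S phase genes. With doublets left out the medians were 0.12 for G2 and M phase and 0.04 for S phase genes. For the members chosen after thinning to 2000 UMIs the G2 and M phase median was −0.24.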

How the data were processed

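The 2 spleen libraries, 1 per treatment, were analysed from raw UMI counts per gene and barcode, which the authors deposited for all barcodes. Cell Ranger 7.0.0 and build mm10 are given per the submitters' processing notes, while the header of the deposited count matrices names version 4. The annotation and the handling of intronic reads are not given in the sources used here, and intronic reads would raise long genes. Gene positions are from GENCODE M21 (907 of 907 listed genes matched). The members, gene lists and tests were chosen with earlier results of these data known.

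Counts were summed per class and library with scipy 1.17.1 and divided by UMIs without haemoglobin genes (CPM). Ratios have exact conditional 95% intervals and shares exact Clopper-Pearson intervals, which do not cover differences between mice or libraries. No p-value was computed. A few genes of the lists and rankings are not reported here by name. A class at 0 was set to a floor of 3 UMIs for log2 values. The summing and interval steps were tested on simulated data.

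Named genes had a level at or above that of barcodes with 10 to 100 UMIs and, for PHZ over bleeding, at least 50 UMIs in the higher library. Comparisons of cell classes had no UMI minimum. Haemoglobin, immunoglobulin, T cell receptor, mitochondrial, ribosomal protein, sex-linked and gate genes were left out. Genes were ranked by the bound nearest 1, up to 12 per direction, with that bound beyond 1.5-fold, in both libraries for comparisons of cell classes. From the lists, the 4 highest genes, those past this bound and genes of known marginal zone role could be named. Named genes within the Fcrl5-only comparison and within members with Myof or S1pr3 were found by this rule after the split was seen. Bhlhe41, Cd5, Satb1 and the genes named behind counts of 6 or fewer were chosen after their values were seen. Doublets were kept in; Scrublet (scanpy 1.11.5) scores marked 332 PHZ and 754 bleeding barcodes for an alternative, 3 and 5 of them members.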

Additional observations from a re-analysis of the deposited data

How the results depend on the processing

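The ratio of marginal zone shares of B barcodes, PHZ over bleeding, lay between 0.396 and 0.647 under every alternative tried. Counts of genes past 1.5-fold, 308 higher and 320 lower in PHZ members, moved most with the filter and with few cells. They were 2422 and 1588 for genes with 1 or more UMI, 82 and 69 for a mean of 50 CPM, and 857 and 962 for the members chosen after thinning to 2000 UMIs. They were 504 and 519 for a mitochondrial limit of 5%, and 35 and 896 without the 3 highest cells of each gene. The last removes 3 of 69 cells from one library and 3 of 299 from the other, so its all-gene median shifts by −0.22 log2. Genes lower numbered 506 with 5 or more gate UMIs, and genes higher 498 with no Fcer2a UMI. Marginal zone over follicular counts, 115 higher and 103 lower, were 624 and 297 for genes with 1 or more UMI, 44 and 66 for a mean of 50 CPM, and 67 and 179 without the 3 highest cells, and genes lower were 159 after thinning. Gene lists with a median over 0.2 log2 from that of all genes numbered 8. They numbered 5 with 5 or more gate UMIs, with 2 or more gate UMIs and with genes of 1 or more UMI. They numbered 4 with doublets left out, 4 without members holding 50 or more G2 and M phase UMIs, and 2 within members that held Myof or S1pr3.

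Some directions of genes and lists past 1.5-fold turned, given as log2 PHZ over bleeding. After thinning they turned for the G2 and M phase list (−0.24), Vim (−2.16) and Fras1 (1.93). Basp1 turned within members that held Myof or S1pr3 (0.25). Dnm3 within those members (0.074) and Basp1 without the 3 highest cells (0.73) changed sign only through the floor of 3 UMIs. The PHZ library had no Dnm3 UMI in those members, and its 2 Basp1 UMIs fall out with the 3 highest cells. The Bcl2 family median of −0.33 was 0.33 after thinning, 0.38 at a mean of 50 CPM, 0.24 with equal weight of cells, 0.18 without G2 and M phase members and 0.01 without the 3 highest cells. The S phase median of 0.35 was −0.01 without G2 and M phase members and −0.21 without the 3 highest cells. Leaving out the 3 highest cells also lowers the all-gene median, so list medians under it cannot be read against the main all-gene median. Values after thinning are full counts of the cells chosen after thinning. The cause of these changes was not tested. Of 360 recomputed PHZ over bleeding values of single genes 44 moved and 5 reversed, the latter including the Dnm3 and Basp1 values set by the floor. Of 864 marginal zone over follicular values 84 moved. The alternatives on members with Myof or S1pr3, on other cell types and on G2 and M phase members were chosen after seeing the data. No paired analysis was possible because each treatment has 1 library. Depth limits genes under about 20 CPM, which had few UMIs in the 69 PHZ members.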

Other observations

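Light chain use was counted per cell by whether lambda UMIs exceeded kappa UMIs. Lambda was ahead in 16 of 69 PHZ members, 23.2% (13.9 to 34.9), and in 71 of 530 PHZ follicular cells, 13.4% (10.6 to 16.6). In the bleeding library it was ahead in 66 of 299 members, 22.1% (17.5 to 27.2), and in 132 of 1271 follicular cells, 10.4% (8.76 to 12.2). The intervals of the classes overlap in the PHZ library, with 69 members, and are apart in the bleeding library, with 299. They cover counting error alone, and no test between classes or libraries was made. Class-switched constant regions exceeded Ighm in 1 of 69 PHZ and 4 of 299 bleeding members. In bleeding Fcrl5-only members 1 cell held 77.5% of the Ighm UMIs and 99.5% of the Jchain UMIs.

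Nuclear genes of oxidative phosphorylation were slightly higher in PHZ members: 63 of 75 had a ratio above 1. Past 1.5-fold upward were 6 of the 75, beside 4.85% of all genes. The list's median was 0.24 log2 in all members, beside 0.02 over all genes. It was 0.21 in members with Myof or S1pr3 and −0.01 in follicular cells. The median in members was 0.14 without those that held 50 or more G2 and M phase UMIs, 0.04 after thinning and 0.02 without the 3 highest cells of each gene. Atp5g3, an ATP synthase subunit, had 168 CPM in PHZ and 107 CPM in bleeding members, a ratio of 1.58 (1.28 to 1.93), and Atp5mpl 1.52 (1.25 to 1.84). The 13 mitochondrial genome transcripts had a median of 0.02. Of 21 interferon response genes 7 had a ratio above 1, with a median of −0.24 in members and −0.12 in follicular cells. Isg15, a ubiquitin-like interferon-induced protein, had 10.5 CPM in PHZ and 39.9 CPM in bleeding members, a ratio of 0.263 (0.111 to 0.534), and 1.85 in follicular cells. Lists of haem and iron handling (median −0.05), hypoxia targets (0.04), antioxidant genes (0.05), the integrated stress response (0.01) and cytosolic ribosomal proteins (0.04) lay within 0.1 log2 of the all-gene median.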
